A study of Rattus norvegicus with 12 samples.

Results

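The potassium channel genes in tissue labelled as rat left atrium were taken as every gene with counts whose symbol starts with Kcn followed by subfamily letters and a number. This rule found 93 of the 21239 genes with counts, in 20 subfamilies. They comprise pore-forming subunits and the ancillary subunits that bind them. The mRNA of tissue labelled as left atrium was measured by RNA-seq in 12 libraries from male rats, 3 in each of 4 groups. The WKY group was the normotensive Wistar-Kyoto strain given saline (7.5 ml/kg/day), and the SHR group was the spontaneously hypertensive strain given the same saline. The ARB group consisted of SHRs that received the angiotensin receptor blocker valsartan (30 mg/kg/day). Rats of the ARNI group were SHRs given sacubitril/valsartan (60 mg/kg/day), in which a neprilysin inhibitor is joined to valsartan, so the treatments differed in dose as well as in agent. All rats were bought at 14 weeks of age and treated for 4 weeks. WKY and SHR are separate strains that differ in more than blood pressure.

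Potassium channels carry the outward current that ends the cardiac action potential and holds the resting potential. Atrial muscle differs from ventricular muscle in carrying an acetylcholine-gated channel, opened by G protein subunits after vagal stimulation, while the strong inward rectifier that fixes the resting potential is better known from ventricular muscle. Pore subunits often work only with partners: ancillary subunits set the speed and the surface density of the channels, and electrically silent subunits open no channel alone but change those they join.

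The labels of the saline groups contradict each other. The 3 libraries named SHR bear the Wistar-Kyoto strain in the words of their titles, the 3 named WKY bear the hypertensive strain there and as a phenotype, and the strain field names Wistar-Kyoto for all 12. The groups here follow the library names, and the direction of each comparison with a saline group rests on them. The labelled tissue was checked against 8 markers of atrial muscle and 5 of ventricular muscle. All 8 atrial markers were higher in every SHR library than in any WKY library: Myl7, the atrial myosin light chain, stood at 0.889 to 15.9 CPM (counts scaled to the total of the library) in the WKY group and at 4478 to 10641 in the SHR group. Bmp10, another of the 8, was at most at 0.0889 CPM in WKY and uneven in SHR, at 933, 186 and 1.02 CPM. Myl2, the ventricular light chain, stood at 3489 to 3776 CPM in the WKY group. Within the SHR group it was at 0.736 and 0.135 CPM in libraries 1 and 3 and at 2298 in library 2. ARB library 3 held both kinds of marker (Myl7 5144 and Myl2 2573 CPM), and ARNI library 2 was near the WKY libraries in most markers (Myl7 9.67 and Myl2 4161 CPM). An exception was the ventricular marker Myh7, at 5907 CPM in ARNI library 2 against 32130 to 32744 in WKY. Strain and chamber therefore cannot be told apart in SHR over WKY. In bulk tissue, fewer cells of a type and less RNA per cell cannot be told apart either.

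The promoters of Kcnj5 and Kcne1 are shown because these genes lay far apart in opposite directions between the groups. Each window runs from 250 bases before to 50 after the start site, 5′ to 3′ on the strand of the gene, and was taken from RefSeq (GRCr8). Both genes lie on the minus strand, Kcnj5 at chr8:39011047-39011346 and Kcne1 at chr11:45076984-45077283. Capitals mark matches to 5 motifs searched on both strands. The TATA box was searched as TATAAA and the GC box as GGGCGG. For muscle factors, the GATA motif was searched as AGATAA, the T-box motif as AGGTGT and the MCAT motif as CATTCC, and matches of different motifs did not share letters in these windows.
Kcnj5: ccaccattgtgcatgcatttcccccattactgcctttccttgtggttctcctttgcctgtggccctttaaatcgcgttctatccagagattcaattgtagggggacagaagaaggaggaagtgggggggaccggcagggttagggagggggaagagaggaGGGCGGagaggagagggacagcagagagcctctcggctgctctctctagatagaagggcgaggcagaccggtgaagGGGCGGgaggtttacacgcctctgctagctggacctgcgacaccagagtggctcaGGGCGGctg
Kcne1: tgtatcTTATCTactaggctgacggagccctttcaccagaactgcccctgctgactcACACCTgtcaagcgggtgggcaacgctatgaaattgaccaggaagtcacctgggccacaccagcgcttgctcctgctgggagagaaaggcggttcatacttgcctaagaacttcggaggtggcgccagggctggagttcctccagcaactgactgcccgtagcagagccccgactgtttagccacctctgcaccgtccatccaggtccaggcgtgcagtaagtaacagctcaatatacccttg
The Kcnj5 window held 3 GC boxes, at 90 and 14 bases before and 41 bases after the start site by their first base. The Kcne1 window held a GATA match and a T-box match on the opposite strand, 244 and 193 bases before the start. A GC box was found in 33.1% of 33469 rat promoters and in 34 of the 69 windows of 63 potassium channel genes (49.3%). For the T-box motif the shares were 13.6% and 15.9%, and for the GATA motif 11.6% in both. None of the 5 motifs was found in either window of Kcnk2 or in that of Kcnmb2.

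In the 12 libraries the 93 genes together took 1995 to 2936 CPM. Of the 93, 45 had a mean of 1 CPM or more and 18 of 10 CPM or more, 16 stayed under 3 counts in every library, and 4 (Kcna10, Kcnk15, Kcns2 and Kcnu1) had no count at all. A count of 0 allows up to 3 counts, which was 0.190 to 0.267 CPM in these libraries. CPM is not corrected for transcript length, so that levels of different genes are not ranked by it. Over the 12 libraries pooled, Kcnip2, Kcng2, Kcnj5, Kcnj11 and Kcnj3 took the most reads. This did not hold in every group: in WKY the mean of Kcnk3 (86.8 CPM) was above those of Kcnj5 (67.1) and Kcnj3 (48.6). Kcnip2, which encodes a calcium-binding partner of the Kcnd channels, alone made up 4.38% (SHR library 3) to 49.8% (ARNI library 2) of the reads of the family. The colour map of the members shows the libraries side by side.

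**Figure D1:**
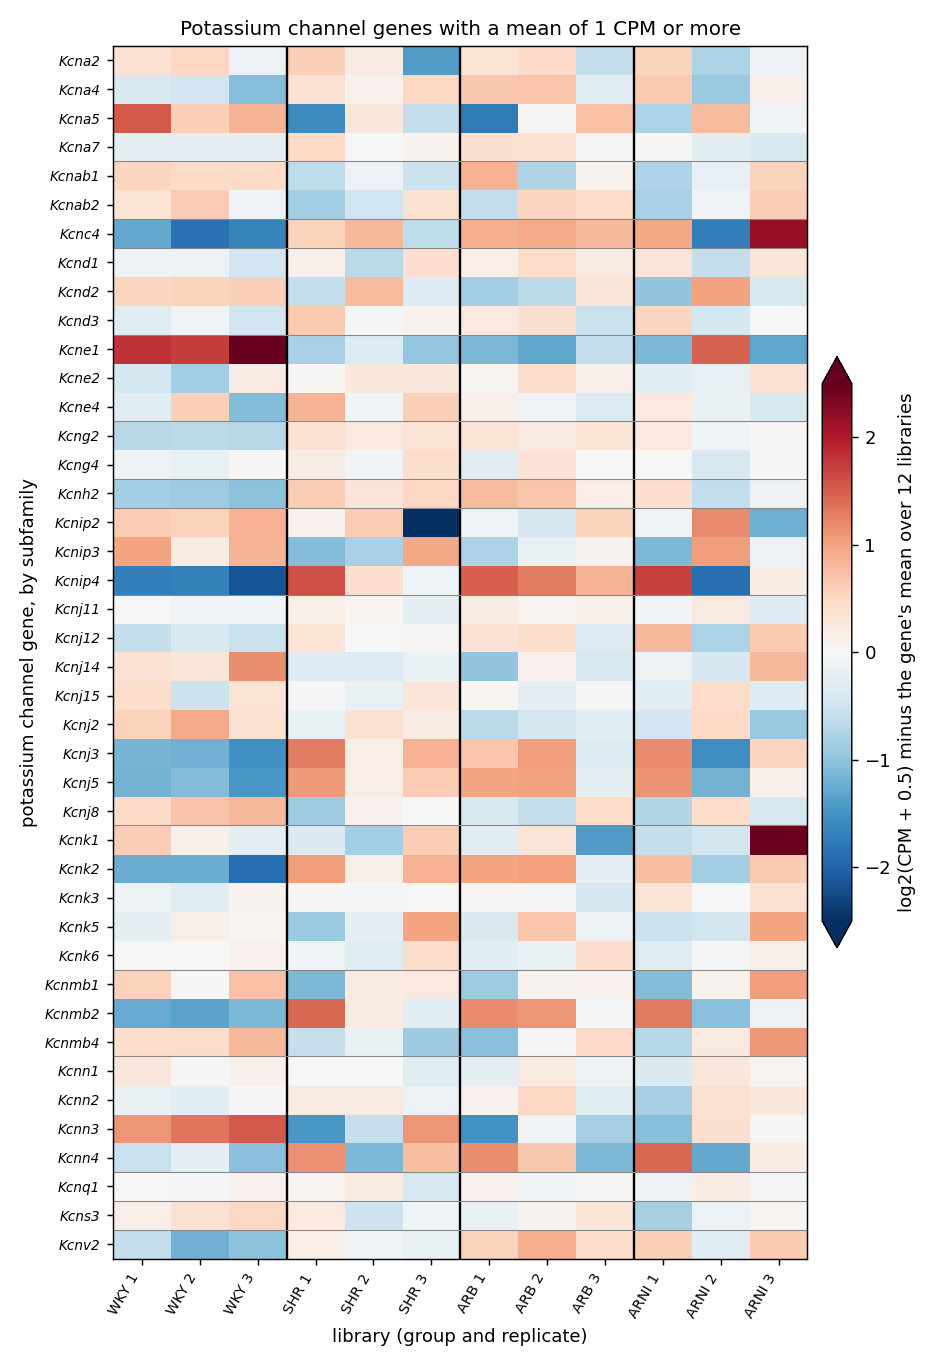
Colour map of 42 potassium channel genes with a mean of 1 CPM or more (rows, by subfamily) in the 12 libraries (columns); colour gives log2(CPM + 0.5) minus the mean of the gene over the 12 libraries. ARNI library 2 has the colours of the WKY libraries for Kcne1, Kcnip4, Kcnj3, Kcnj5 and Kcnk2, and Kcnk1 and Kcnc4 are highest in ARNI library 3.

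SHR over WKY was set up to compare the left atria of hypertensive rats with those of the control strain. By the chamber markers above, it sets libraries rich in atrial markers against libraries with a ventricular pattern. In this comparison 14 of the 48 tested members were called by edgeR's quasi-likelihood test, at an adjusted p of at most 0.05 with a log2 fold change of 1 or more in either direction. Of these, 8 were higher and 6 lower in the SHR group. Among all 13794 genes tested, 8.89% were called, 5.54% higher and 3.35% lower. The share of the tested members was 29.2%. A total of 45 members did not pass the filter on low counts. Of those that did, 5 (Kcnc4, Kcne1, Kcnip4, Kcnmb2 and Kcnmb4) reached the level of the filter, 0.819 CPM, in only 1 of the groups, and such genes can pass only where they differ. Without the filter 14 of 88 members were called (15.9%), beside 6.62% of all genes. The median log2 fold change was −0.06 over the tested members and 0.01 over all tested genes. The groups did not overlap for 25 of the 48 members, 14 higher and 11 lower, beside 49.6% of all genes tested. With library totals alone as the scaling, the split of called members was 11 higher and 5 lower, and the median of all genes moved to 0.15.

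**Figure D2:**
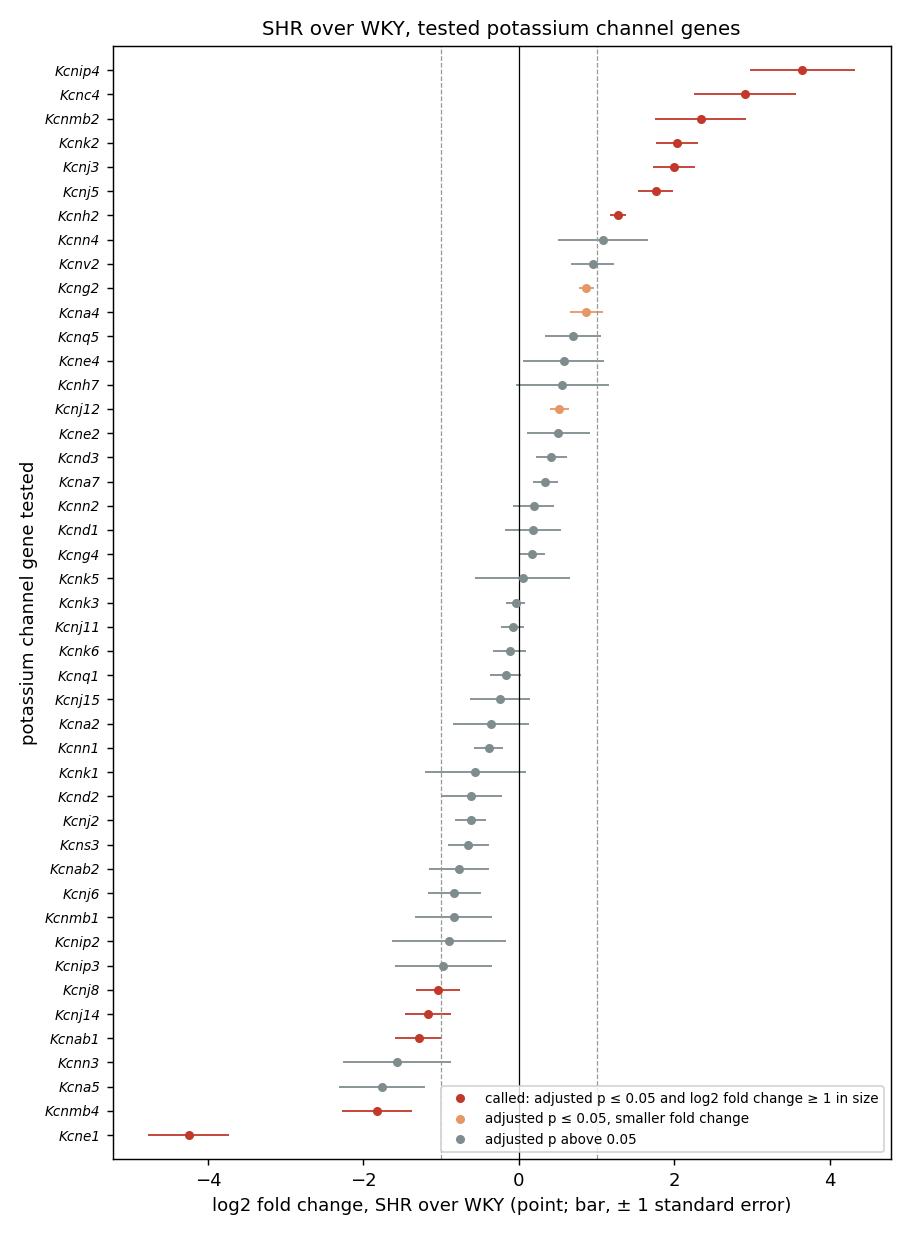
Log2 fold change of SHR over WKY (point) with its standard error (bar) for 45 of the 48 tested potassium channel genes, sorted by size; dashed lines mark a log2 fold change of 1 in either direction. Kcnip4 stands at the top with 3.65 and Kcne1 at the bottom with −4.25.

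The subunits of the acetylcholine-gated channel rose together. Kcnj3, a pore subunit of this channel, stood at 52.9, 51.6 and 41.3 CPM in WKY, at 291, 134 and 220 in SHR, at 195, 247 and 94.3 in ARB and at 274, 40.6 and 175 in ARNI. Every SHR library lay above every WKY library, and ARNI library 2 lay below the lowest WKY library. Between SHR and WKY its log2 fold change was 2.00 (SE 0.27, adjusted p = 0.00740). Its partner Kcnj5, with which it forms the heteromeric channel, stood at 69.8, 73.8 and 57.7 CPM in WKY and at 331, 177 and 246 in SHR. In the treated groups it was at 313, 319 and 135 CPM (ARB) and at 347, 69.5 and 173 CPM (ARNI). The log2 fold change was 1.76 (SE 0.23, adjusted p = 0.00673), again without overlap. In both genes SHR library 2 and ARB library 3, which hold markers of both chambers, were the lowest of their groups. The read ratio of Kcnj3 to Kcnj5 stayed between 0.585 and 1.01 across the 12 libraries while the levels ranged from 40.6 to 291 and from 57.7 to 347 CPM. Kcnj1, the neighbour of Kcnj5 in the gene table, a channel best known from the kidney, was at or below 0.258 CPM in every library.

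Among the partners of this channel that the symbol rule does not cover, 3 that take part in its coupling to the vagus were called higher. Chrm2, the muscarinic receptor of the heart, had a mean of 53.1 ± 7.18 CPM (SD, n = 3) in WKY and 125 ± 28.7 in SHR (log2 fold change 1.08, SE 0.16, adjusted p = 0.0101). Gnao1, a G protein alpha subunit, went from 39.4 ± 6.27 to 214 ± 63.7 CPM (log2 fold change 2.31, SE 0.24, adjusted p = 0.00433). Rgs6, which speeds the closing of the channel, went from 53.8 ± 6.70 to 134 ± 32.9 CPM (log2 fold change 1.19, SE 0.19, adjusted p = 0.0130). ARNI library 2 held 56.0, 33.6 and 58.2 CPM of these genes, within or near the WKY range. The inhibitory G protein subunits Gnai2 (log2 fold change 0.34, adjusted p = 0.0890) and Gnai3 (0.03, adjusted p = 0.869) were not called, and Rgs4, a relative of Rgs6, was lower under the fold (−0.68, adjusted p = 0.0360). Of the 28 listed partners 21 were tested: 3 rose and 1 fell by the call rule, beside 5.54% and 3.35% of all genes. Their median log2 fold change was 0.32, beside 0.01 over all tested genes. The one that fell was Irx5, a transcription factor that represses Kcnd2 in ventricular muscle (21.0 ± 3.34 against 5.81 ± 1.16 CPM, log2 fold change −1.99, adjusted p = 0.00433).

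Of the tandem-pore background channels, Kcnk2, a stretch- and lipid-sensitive leak channel, was higher in SHR. Its levels were 26.5, 26.6 and 16.4 CPM in WKY and 131, 69.9 and 115 in SHR, with no overlap (log2 fold change 2.04, SE 0.27, adjusted p = 0.00703). It stood at 125, 129 and 54.1 CPM in ARB and at 106, 34.4 and 100 in ARNI. ARNI library 2 was the lowest of the 9 libraries outside the WKY group and still above the WKY range. Kcnk3, an acid-sensitive leak channel, was at 85.5, 76.6 and 98.2 CPM in WKY and at 95.0, 90.7 and 93.4 in SHR, where the SHR values lie inside the WKY range (log2 fold change −0.04, SE 0.12, adjusted p = 0.849). Kcnk6 (4.97 to 8.78 CPM) and Kcnk1 (0 to 6.85 CPM over the 12 libraries) did not pass the test, with log2 fold changes of −0.12 (SE 0.21) and −0.56 (SE 0.65).

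Members of the delayed rectifiers, which repolarise the membrane late in the action potential, went both ways. Kcnh2, the pore subunit of the rapid component and the rat counterpart of hERG, stood at 63.4, 62.4 and 56.1 CPM in WKY and at 177, 144 and 165 in SHR. The groups were far apart, with a log2 fold change of 1.28, the smallest standard error among called members (0.10) and an adjusted p of 0.00207. ARB libraries held 199, 187 and 129 CPM and ARNI libraries 154, 75.1 and 105 CPM. Kcne1, the ancillary subunit that slows the channel formed by Kcnq1, was lower: 3.84, 3.57 and 6.75 CPM in WKY against 0.201, 0.473 and 0.135 in SHR (log2 fold change −4.25, SE 0.52, adjusted p = 0.00609). The SHR values stand for 3, 6 and 2 counts and the WKY values for 45, 41 and 76, so the size of this fall rests on few counts. ARB libraries held 1, 0 and 4 counts of Kcne1, and ARNI libraries 1, 37 and 0, with the 37 in library 2. Kcnq1 itself, the pore subunit, was at 75.5 to 83.6 CPM in WKY and at 58.9 to 90.6 in SHR and did not pass the test (log2 fold change −0.17, SE 0.20, adjusted p = 0.558). The read ratio of Kcnh2 to Kcnq1 was 0.671 to 0.826 in the WKY libraries, 1.59 to 2.81 in the SHR libraries, and 0.851 in ARNI library 2. Kcna5, the ultrarapid channel of the atrium, was at 14.1, 7.13 and 8.62 CPM in WKY and at most at 5.60 in SHR. Its groups did not overlap, yet the log2 fold change of −1.76 (SE 0.55) had an adjusted p of 0.0640. It was called without SHR library 2 (log2 fold change −2.48, adjusted p = 0.00602) and by DESeq2 (−1.77, adjusted p = 0.00921).

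**Figure D3:**
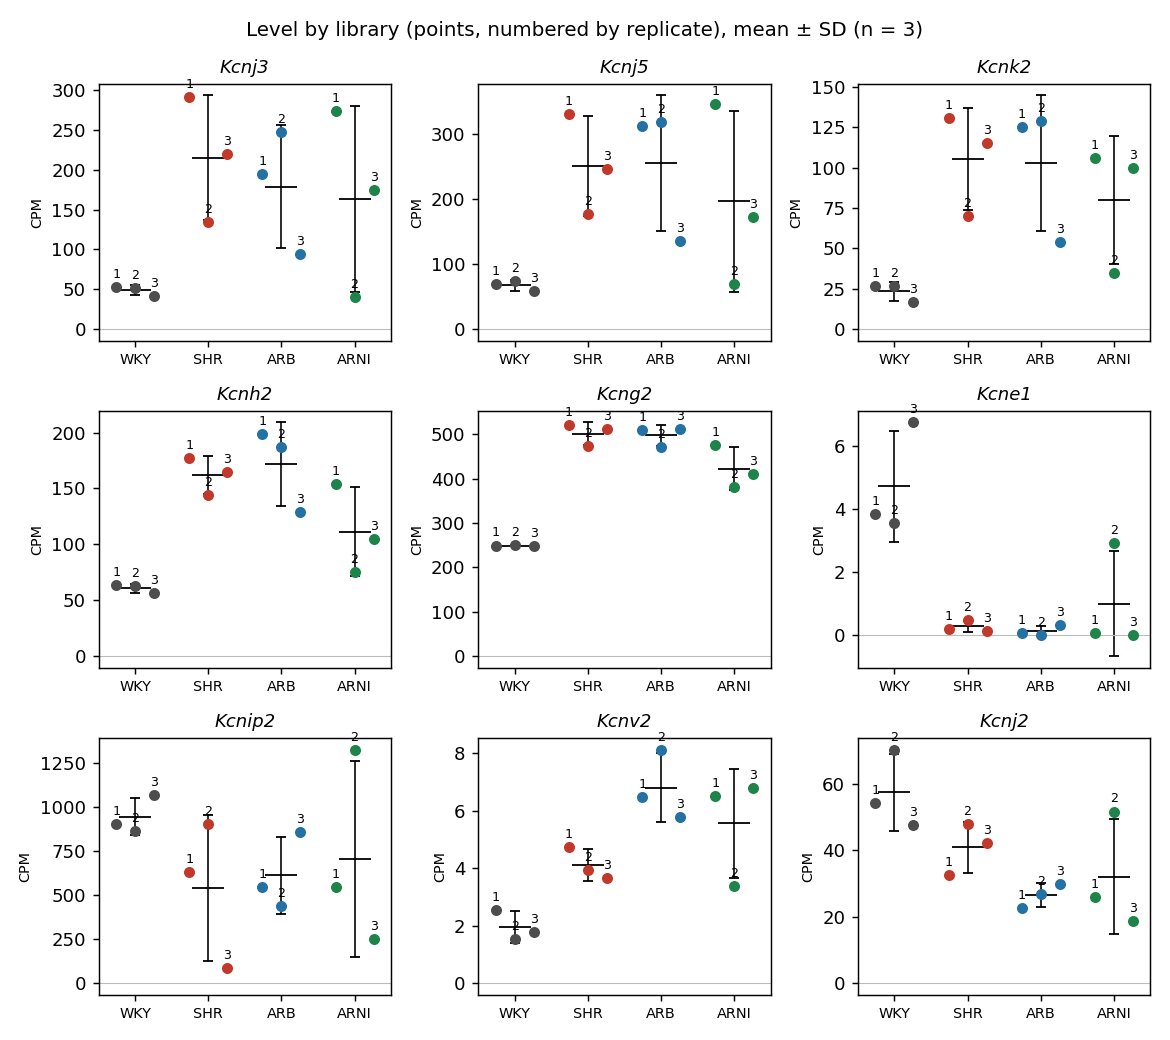
CPM of 9 potassium channel genes in the 12 libraries, by group; points are libraries numbered by replicate, horizontal bars and whiskers the mean ± SD (n = 3). WKY and SHR libraries are apart for Kcnj3, Kcnj5, Kcnk2, Kcnh2, Kcng2, Kcne1 and Kcnv2, and replicate 2 of ARNI stands near the WKY libraries for Kcnj3, Kcnj5 and Kcne1.

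Kcng2, an electrically silent subunit that acts by joining other pore subunits, had tight groups. Its WKY libraries stood at 249, 251 and 247 CPM and its SHR libraries at 520, 473 and 511. The ARB libraries held 509, 470 and 512 CPM and the ARNI libraries 475, 380 and 411. The group means were 249 ± 2.00 and 501 ± 24.8 CPM, and after scaling of the libraries the log2 fold change was 0.87 (SE 0.10, adjusted p = 0.00489), under the fold of the call rule. With library totals alone as the scaling Kcng2 was called (log2 fold change 1.01, adjusted p = 0.00299). SHR library 2 was the lowest of its group and ARB library 3 the highest of its own, and ARNI library 2 lay between the WKY and SHR ranges. With the chamber marker score described below as a covariate the log2 fold change was 0.89 (adjusted p = 0.0348), in a fit that extends beyond the data because the WKY scores do not overlap the SHR scores. Its adjusted p was at most 0.0437 in every alternative run. The silent subunit Kcnv2 was at 2.56, 1.52 and 1.78 CPM in WKY and at 4.75, 3.94 and 3.66 in SHR (log2 fold change 0.95, SE 0.28, adjusted p = 0.0535). It too was called with library totals alone (1.08, adjusted p = 0.0347). Kcng4 (log2 fold change 0.17) and Kcns3 (log2 fold change −0.65), which are silent subunits too, did not pass the test.

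Among the genes of the transient outward current, which gives the early notch of the action potential, none was called. Kcna4 was at 4.00 to 6.73 CPM in WKY and at 9.62 to 12.9 in SHR, apart but under the fold (log2 fold change 0.87, SE 0.21, adjusted p = 0.0352). With library totals alone it was called (1.01, adjusted p = 0.0275). The pore subunit Kcnd3 was at 31.2 to 41.1 CPM in WKY and at 42.7 to 69.0 in SHR (log2 fold change 0.42, adjusted p = 0.171). Kcnd2 stood at 18.9, 19.2 and 19.9 CPM in WKY and at 8.44, 22.7 and 10.3 in SHR, where library 2 was above the WKY range and the others far below it (log2 fold change −0.61, SE 0.39, adjusted p = 0.284). Without SHR library 2 the log2 fold change was −1.22 (adjusted p = 7.25e-04), which was called. The read ratio of Kcnd3 to Kcnd2 was 1.57 to 2.14 in WKY, 1.88 and 1.85 in SHR library 2 and ARB library 3, 1.21 in ARNI library 2, and 4.50 to 10.1 in the other 6 libraries. Kcnip2 was at 903, 864 and 1065 CPM in WKY and at 628, 901 and 88.6 in SHR. SHR library 3 held a small part of what its group mates held, and the log2 fold change of −0.90 had a standard error of 0.73 (adjusted p = 0.390). ARNI libraries spread as widely, at 546, 1323 and 248 CPM.

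Kcnip4 and Kcnc4 rose from low levels. Kcnip4, a relative of Kcnip2, had 5, 5 and 2 counts in WKY and 131, 45 and 34 in SHR (0.346 ± 0.146 against 4.87 ± 3.42 CPM, log2 fold change 3.65, SE 0.68, adjusted p = 0.0174). It had 122, 100 and 62 counts in ARB and 149, 4 and 43 in ARNI. Kcnc4, a fast-activating pore subunit, had 6, 2 and 3 counts in WKY and 47, 48 and 16 in SHR (log2 fold change 2.91, SE 0.66, adjusted p = 0.0291), with 155 in ARNI library 3. Kcnab1, a beta subunit that speeds inactivation of Kcna channels, fell from 2.43 ± 0.0679 to 1.05 ± 0.290 CPM (log2 fold change −1.29, adjusted p = 0.0304). In ARB library 1 it was at 3.29 CPM, above every WKY library.

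Inward rectifiers set the resting potential. Kcnj2, a main pore subunit of this current, was at 54.2, 70.2 and 47.6 CPM in WKY and at 32.5, 47.8 and 42.1 in SHR, an overlap by a narrow margin (log2 fold change −0.62, SE 0.20, adjusted p = 0.0690). Kcnj12, which can join it in a channel, was at 43.7 to 50.1 CPM in WKY and at 67.2 to 83.9 in SHR, without overlap and under the fold (log2 fold change 0.52, SE 0.12, adjusted p = 0.0326). The read ratio of Kcnj12 to Kcnj2 was 0.713 to 0.951 in the WKY libraries and 0.736 in ARNI library 2, and 1.41 to 5.63 in the other 8 libraries. Kcnj4 was under 3 counts in every library. Kcnj14, an inward rectifier better known from neurons, fell from 6.27 ± 2.41 to 3.07 ± 0.231 CPM (log2 fold change −1.17, adjusted p = 0.0394). ARNI library 2 was at 2.71 CPM here, on the side of the SHR group.

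Of the ATP-sensitive channels, which open when ATP falls, Kcnj8 was lower in SHR and Kcnj11 was not called. Kcnj8, the pore subunit known from vascular smooth muscle and pericytes, was at 18.2, 21.4 and 22.9 CPM in WKY and at 6.69, 13.9 and 12.9 in SHR (log2 fold change −1.04, SE 0.28, adjusted p = 0.0446). The 4 pericyte markers summed to 285 to 323 CPM in WKY and 122 to 246 in SHR, with 3 of the 4 lower without overlap and 0 called, and the 5 smooth muscle markers to 330 to 398 and 275 to 326, with 2 of the 5 lower without overlap and 1 called (Myh11, log2 fold change −1.13, adjusted p = 0.0421). Their part in the level of Kcnj8 was not tested. Kcnj11, the pore subunit of heart muscle, was at 166 to 175 CPM in WKY and at 149 to 196 in SHR (log2 fold change −0.08, SE 0.15, adjusted p = 0.730). The sulfonylurea receptor genes stand next to these pore genes in the gene table. Abcc9, beside Kcnj8, had a log2 fold change of 0.15 (adjusted p = 0.565), and Abcc8, beside Kcnj11, one of 0.47 (adjusted p = 0.0299), under the fold. In the pair of Abcc9 and Kcnj8, then, only the pore gene was called, and the difference between the genes was not tested.

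Calcium-activated channels were read at low levels. Kcnmb2, an ancillary subunit of the large-conductance channel, rose from 8, 7 and 9 counts to 106, 35 and 27 (log2 fold change 2.34, SE 0.59, adjusted p = 0.0378). Kcnmb4, another beta subunit, fell from 17, 17 and 23 counts to 7, 10 and 4 (log2 fold change −1.83, SE 0.45, adjusted p = 0.0362). Kcnma1, the pore that both subunits need, reached at most 0.813 CPM in the 11 libraries other than ARNI library 3. Kcnmb1, the beta subunit of smooth muscle, was at 2.33 to 4.08 CPM in WKY and at 0.760 to 2.76 in SHR (log2 fold change −0.84, SE 0.50, adjusted p = 0.253). Of the small-conductance channels, Kcnn3 was at 5.04, 6.02 and 6.93 CPM in WKY and at 0.440, 1.23 and 5.01 in SHR, with SHR library 3 just under the WKY range (log2 fold change −1.57, SE 0.70, adjusted p = 0.144). Without SHR library 3 the log2 fold change was −2.89 (adjusted p = 0.0163), which was called. Kcnn1 (5.31 to 8.52 CPM) and Kcnn2 (1.16 to 3.71 CPM) did not pass the test.

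The called members did not rest equally on each library. Kcne1, Kcnh2, Kcnj3, Kcnj5 and Kcnk2 were called in all 6 fits that leave out 1 library, Kcnip4 in 3, and Kcnc4 and Kcnmb2 in 2. Kcnab1, Kcnj14, Kcnj8 and Kcnmb4 were called in 1 such fit. The count was 5 of 50 members without each of the WKY libraries (beside 2.46% to 2.78% of all genes) and 6 of 49 without SHR library 1 (12.2%, beside 4.12%). It was 10 of 48 without SHR library 3 (20.8%, beside 8.23%) and 18 of 48 without SHR library 2, which holds ventricular markers (37.5%, beside 15.7%). In a fit with the replicate number as a block it was 7 of 48 (14.6%, beside 4.94%). In 1 fit of all 12 libraries only 2 of 53 members were called (3.77%), beside 4.01% of all genes, a share near the background.

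Levels of the members were set beside a chamber marker score, the mean log2 CPM of the 8 atrial markers minus that of the 5 ventricular markers. The score was −8.82 to −8.58 in the WKY libraries, 8.53, 0.35 and 7.59 in SHR, 8.12, 7.70 and 0.38 in ARB, and −7.05 and 5.59 in ARNI libraries 2 and 3. In the plot of levels against the score, Kcnj3 and Kcnk2 are lowest in the 4 libraries under −7, intermediate in the pair near 0 and highest in the others. For 12 of the 14 called members ARNI library 2 lay nearer on the scale of log2(CPM + 0.5) to the WKY mean than to the SHR mean (85.7%), beside 945 of all 1226 called genes (77.1%). The exceptions were Kcnab1 and Kcnj14. In a fit of all 12 libraries with the score as covariate, none of the 14 was called, and Kcnd2 alone among the 53 tested members was (log2 fold change 1.43, adjusted p = 0.00446), beside 0.955% of all genes. Since no WKY score lies within the range of the SHR scores, such a fit extends beyond the data.

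**Figure D4:**
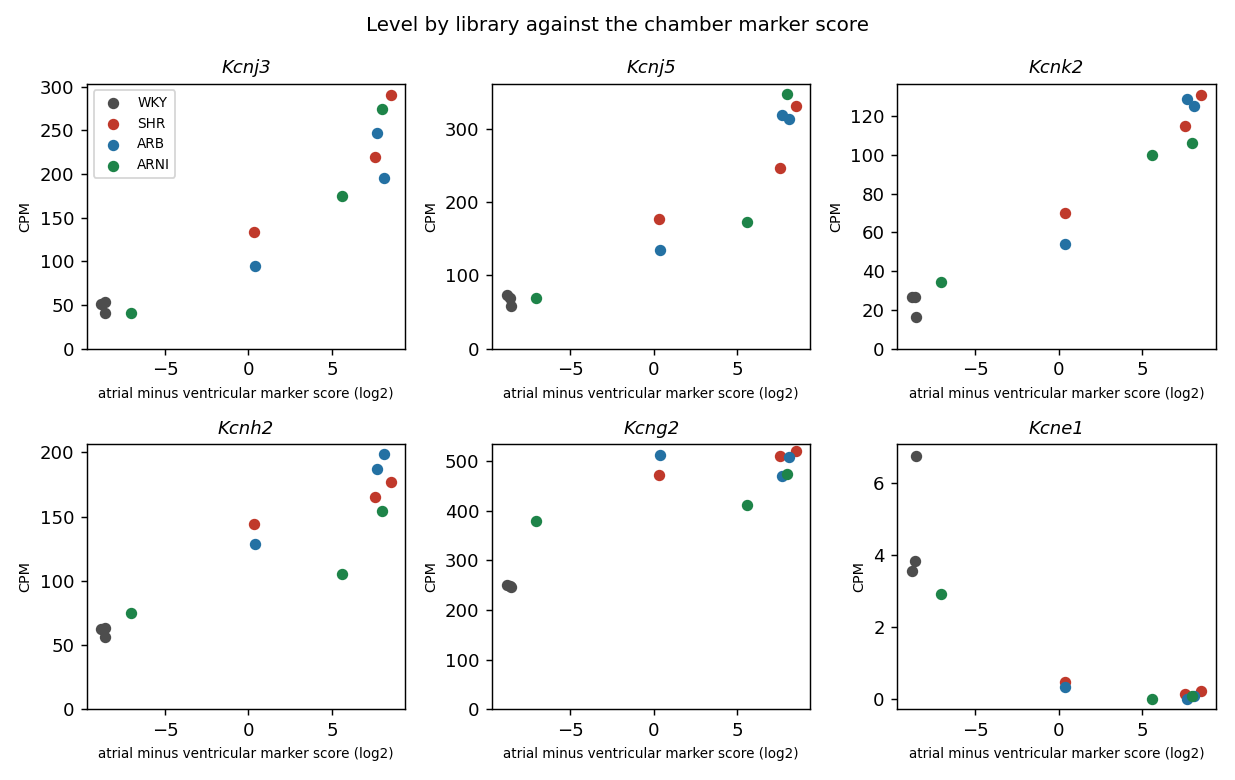
CPM of 6 potassium channel genes (vertical axis) against the atrial minus ventricular marker score on the log2 scale (horizontal axis) in 12 libraries coloured by group. The WKY libraries and ARNI library 2 lie to the left of −7, SHR library 2 and ARB library 3 near 0, and the other 6 libraries above 5; Kcng2 in ARNI library 2 is at 380 CPM, between the WKY and the other libraries.

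The treated groups were compared with both saline groups, because the labels do not settle which saline group is of which strain. ARB over SHR asked what valsartan changed in hypertensive rats. Here 0 of 47 tested members were called by edgeR, beside 0% of 13979 genes. DESeq2 called 0 members too, and 2 had an unadjusted p under 0.05, Kcnv2 and Kcnj2. Among 47 tests some p under 0.05 are due by chance. Kcnv2 was at 6.48, 8.12 and 5.79 CPM in ARB, above every SHR library (log2 fold change 0.74, SE 0.21, unadjusted p = 0.0111 by edgeR, not past the threshold after adjustment). Its p stayed under 0.05 in all 14 alternatives, which reuse the same libraries, and its adjusted p was never below 0.775 in them. Kcnj2 was at 22.6, 26.8 and 29.8 CPM in ARB, below every SHR library (log2 fold change −0.60, SE 0.20, unadjusted p = 0.0224 by edgeR, likewise not past it), with a p under 0.05 in 10 of the 14. The third member without overlap was Kcnc4, higher in ARB (4.01 ± 0.196 CPM). These 3 of 47 members (6.38%) stand beside 5.39% of all genes without overlap between these groups. For the genes of the acetylcholine-gated channel the log2 fold changes were −0.25 (Kcnj3, SE 0.37) and 0.04 (Kcnj5, SE 0.35).

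ARNI over SHR asked the same of sacubitril/valsartan, and again 0 of 48 tested members were called by edgeR (0% of 13955 genes) and 0 by DESeq2. The 1 member with an unadjusted p under 0.05 was Kcnk3, at 118, 93.1 and 122 CPM in ARNI (log2 fold change 0.33, SE 0.11, unadjusted p = 0.0229, adjusted p = 0.999), and its groups overlapped. Its p was under 0.05 in 8 of the 14 alternatives. Kcnh2 had a log2 fold change of −0.48 (SE 0.23, adjusted p = 0.999) and Kcng2 one of −0.17 (SE 0.15, adjusted p = 0.999). ARNI over ARB compared the treatments at their different doses, with 0 of 47 called by edgeR (0% of 13948 genes) and 0 by DESeq2. Kcnk3 was again the 1 member with an unadjusted p under 0.05 (log2 fold change 0.44, SE 0.14, unadjusted p = 0.0206, adjusted p = 0.993), with a p under 0.05 in 9 of the 14 alternatives. The comparisons share the ARNI libraries. With ARNI library 2 and SHR library 2, ARB library 3 and SHR library 2, or ARNI library 2 and ARB library 3 left out together, the counts of called members were 0 as well. Errors were wide for the genes that follow the chamber markers, for example 0.62 for Kcnj3 in ARNI over SHR. Changes of that size, and larger ones, could go uncalled after adjustment over all genes. Members with smaller errors, such as Kcnk3 (SE 0.11), were not called either.

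Set against WKY, the ARB group had 14 of 47 tested members called (29.8%), 9 higher and 5 lower, beside 11.1% of all genes (6.19% higher and 4.87% lower). Here too, members that reach the level of the filter in only 1 group can pass only where they differ. Without the filter 13 of 88 members were called (14.8%), beside 8.58% of all genes. Those higher were Kcna4, Kcnc4, Kcnh2, Kcnip4, Kcnj3, Kcnj5, Kcnk2, Kcnmb2 and Kcnv2, and among those lower were Kcne1, Kcnip3, Kcnj2 and Kcnn3. This comparison shares the WKY libraries with SHR over WKY. The log2 fold changes of ARB over WKY were 1.77 for Kcnj3 (SE 0.30), 1.82 for Kcnj5 (SE 0.30), 2.04 for Kcnk2 (SE 0.33) and 1.41 for Kcnh2 (SE 0.16). Kcnj2 fell from 57.3 ± 11.7 to 26.4 ± 3.61 CPM (log2 fold change −1.21, SE 0.18, adjusted p = 0.00511), and Kcnn3 from 5.04 to 6.93 CPM over the WKY libraries to 0.397 to 1.97 over the ARB libraries (log2 fold change −2.53, SE 0.47, adjusted p = 0.00980). Kcnv2 rose from 1.95 ± 0.541 to a mean of 6.79 CPM (log2 fold change 1.71, SE 0.25, adjusted p = 0.00470). Kcnip3, a calcium-binding relative of Kcnip2 that also acts on transcription, had a log2 fold change of −1.22 (SE 0.37, adjusted p = 0.0470). Strain, treatment and chamber cannot be told apart in it.

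ARNI over WKY had 0 of 46 tested members called by edgeR, beside 0.249% of all genes. An unadjusted p under 0.05 was found for 8 of the 46, and an adjusted p of at most 0.05 for 0. DESeq2 called 7 of 89 (7.87%, beside 2.66%). Without ARNI library 2, 15 of 50 were called (30.0%), 8 higher and 7 lower, beside 11.3% of 14032 genes. This share is of members that passed the filter, so the limit given for ARB over WKY holds for it as well. Among the 15 were Kcnj3 (log2 fold change 2.10, adjusted p = 0.00328), Kcnj5 (1.85, adjusted p = 0.0103), Kcnk2 (2.04, adjusted p = 0.00299), Kcnj12 (1.14, adjusted p = 0.00212) and, lower, Kcnj2 (−1.48, adjusted p = 0.00880) and Kcnd2 (−1.39, adjusted p = 0.00690).

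ARNI library 3 differed from the rest in several members, most of them at low levels in the others. Of the 77 members that reached 3 counts in some library, 18 were highest there (23.4%), beside 11.7% of 17260 such genes. In 8 of these 18 members the level was at least 2 times that of the next library, beside 370 of the 2023 genes highest there. Over all that reached 3 counts this was 8 of the 77 members, beside 370 of the 17260 genes. No other library had as many such genes, and the next was SHR library 3 with 112. Kcnk1 was at 6.85 CPM against at most 1.56 elsewhere, and Kcnma1, the large-conductance pore, at 3.53 against 0.813. Kcnq3, a pore subunit known from neurons, was at 0.678 CPM (10 counts) against 0.236. Kcnc4, Kcna6, Kcnh1 and Kcnt1 were among them as well. Of these, Kcnc4 was not seldom read elsewhere, with 47, 48 and 16 counts in SHR and 61, 61 and 48 in ARB. The 8 markers of neurons and glia summed to 227 CPM there against 21.4 to 91.5 in the other libraries, with 5 of the 8 highest in it and Th near 0 (0.0678 CPM). The 5 smooth muscle markers summed to 847 CPM against 275 to 398 (4 of 5 highest there), the 4 pacemaker markers to 202 CPM against 34.0 to 155 (3 of 4 highest there). The 4 adipocyte markers summed to 388 CPM (2 of 4 highest there), against 345 in ARB library 2 and 0 to 14.6 in the others. The part of these cells in the levels of the 8 members was not tested. ARNI library 3 also had less Kcnip2 than every other library except SHR library 3.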

How the data were processed

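The mRNA of tissue labelled as left atrium (oligo(dT) selected, single-end reads of a BGISEQ-500) was measured in 12 libraries. Per the paper's methods, the authors filtered reads with SOAPnuke, aligned them with HISAT2 2.0.4 and Bowtie2 2.2.5 and estimated expression with RSEM, and the submitters' processing notes name the build Rnor 6.0. The authors deposited expected counts per gene without normalization, for 21239 of 37246 listed genes. RSEM shares a read between genes it matches, so 23.6% of values were not whole, and near-identical genes are uncertain. The kit is not stated to keep strand, so overlapping genes cannot be told apart. The deposited table also holds 2 columns of the authors' own comparison of SHR with WKY, a log2 fold change and a p-value, which were not used.

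Counts were rounded to whole numbers. CPM were computed from library totals, which ranged from 11252361 to 15823525. Each pair of groups was fitted alone with edgeR 4.0.16 (R 4.3.3): filterByExpr, TMM scaling, quasi-likelihood test, and Benjamini-Hochberg adjustment over all genes tested. Genes were called at an adjusted p of at most 0.05 with a log2 fold change of 1 or more in either direction, after the study's thresholds. Standard errors were derived from the F statistic. Limits from 3 counts cover counting error only, because PCR copies of a molecule cannot be told apart here. Alternatives were DESeq2 1.42.0, other scalings, no filter, 1 fit of 12 libraries, that fit with a chamber marker score (prior count 1), the replicate number as a block, and leaving out each library. Leaving out 2 mixed or ventricular libraries together was chosen after seeing the data. The tests were checked on simulated counts for SHR over WKY, with a common spread for all genes and no mixed library. That check does not cover groups whose libraries differ in chamber markers. The study used 3 rats per group, and each library was taken as 1 rat.

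Deviations from the group means of libraries with the same number correlated at 0.67, 0.68 and 0.30 between SHR and ARNI. They correlated at 0.59, −0.43 and −0.42 between SHR and ARB, and at 0.74, −0.54 and −0.24 between ARB and ARNI. The lowest chamber marker score was in replicate 2 of SHR (0.35) and ARNI (−7.05) and in replicate 3 of ARB (0.38). Pairing and shared chamber content cannot be told apart in these values. With the replicate block, ARNI over SHR had 0 members called, as without it. Nothing in the labels ties the numbers.

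The members, gene lists and tests were chosen with earlier results of these data known. The genes named with values were those of a list of cardiac currents, every member called in any comparison, and the 5 with the highest mean CPM; Kcng4, Kcns3 and the members standing out in ARNI library 3 were named after their values were seen. Some members count in the totals but are not reported here by name. All 93 members matched a GRCr8 gene table, used for names and neighbours only. Figures were drawn with Python 3.11.15 and matplotlib 3.10.9.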

Additional observations from a re-analysis of the deposited data

How the results depend on the processing

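For SHR over WKY, 14 of 48 members were called in the fit of the 6 libraries (29.2%, beside 8.89% of all genes). With DESeq2 it was 16 of 88 (18.2%, beside 8.53%), and with library totals alone 16 of 48 (33.3%, beside 9.77%). The count was 2 of 53 in 1 fit of 12 libraries (Kcnh2 and Kcnk2), 3.77% beside 4.01% of all genes, so no excess over the background there. With the chamber marker score as covariate it was 1 of 53 (1.89%, beside 0.955%). It was 7 of 48 with the replicate block (14.6%, beside 4.94%), and 5 to 18 when 1 library was left out (beside 2.46% to 15.7%). Same-numbered WKY and SHR libraries did not deviate together (correlations 0.02, −0.07 and −0.12), so the numbers are not known to pair these rats, and the block changed the count of called members in no comparison but this by over 1.5 times. The signs of 4 members described here turned with the score: Kcne1 0.71, Kcnj3 −0.16, Kcnj8 0.37 and Kcnd2 1.43. The score of the WKY libraries does not overlap that of the SHR libraries, so that fit has little to hold the groups apart. For ARB over WKY the count was 14, and 11 to 21 without 1 library (beside 7.06% to 16.9% of all genes). With the score it was 1 of 53 (1.89%), beside 361 of 14452 genes, a larger share, so no excess over the background there. For ARNI over WKY it was 0 with edgeR, 7 with DESeq2, 1 in 1 fit of 12 libraries (beside 1.09% of all genes) and 0 to 15 without 1 library, the 15 without ARNI library 2. In ARB over SHR, ARNI over SHR and ARNI over ARB no alternative called a member.

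Over the named members of SHR over WKY, 403 log2 fold changes from alternatives were compared: 334 kept their direction and side of the threshold or changed sign without a call in either fit (19), 57 were no longer called, 8 became called and 4 turned. With TMM-scaled library sizes 3 of 44 subfamily sums moved by more than 1 SD. Depth limits the members under 1 CPM, where a few counts set the fold, and 3 libraries per group set the spread.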
